A study of Mus musculus with 19 samples.

Results

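Skin of mice with early basal cell carcinoma (BCC) was compared after 2 treatments, ablative fractional laser (AFL) and vismodegib, gene by gene. The comparison uses 9 of the 19 RNA-seq libraries of the study and 7 of its 16 mice, chosen by their labels alone. AFL skin came from mice 2, 7 and 11 (4 libraries, a pair of them from mouse 11), and vismodegib skin from mice 1, 6, 9 and 12 (5 libraries, a pair of them from mouse 12). Libraries of one mouse were summed, so that a replicate is a mouse and each value below is that of 1 mouse.

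All 7 mice were female and of 1 genotype, Ptch1+/- K14-CreER2 p53fl/fl. They lack 1 copy of Ptch1, the Hedgehog receptor that restrains the pathway. They also carry a tamoxifen-activated Cre recombinase under the keratin 14 promoter. With it the floxed Trp53 gene can be lost in basal keratinocytes and in cells that descend from them. Every one of them had been induced: tamoxifen was injected 3 times at 300 µg, and 4 Gy of x-rays were given once. The AFL mice received 1 pass of the laser at a density of 5% and 40 mJ per microbeam, and the vismodegib mice 8 treatments with the drug. Skin of 1 cm2 was taken on day 4. The AFL mice were 326, 228 and 275 days old, 116, 80 and 126 days after induction, and the vismodegib mice 326, 283, 278 and 268 days old, 109, 135, 137 and 126 days after induction. The samples used here hold no vehicle or sham controls, so each treatment is compared with the other and not with its own carrier or handling. Untreated BCC skin of 4 induced mice (278 to 320 days old) and healthy skin of 5 mice of the strain that were not induced (128 to 137 days old) are given as levels, with no test.

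BCC arises when the Hedgehog pathway runs unchecked in basal keratinocytes. Hedgehog ligands bind Ptch1, which releases Smoothened, and Smoothened activates the GLI transcription factors that switch on Gli1, Ptch1 and Hhip. Vismodegib binds and blocks Smoothened. AFL works on another principle: it vaporises a grid of narrow columns of skin down into the dermis and leaves the tissue between them in place, so that each column is a small wound that heals from its edges. Healing skin passes through an inflammatory phase of neutrophils and macrophages, a phase of new matrix, and remodelling, while keratinocytes close the gap with wound keratins and cornified envelope proteins.

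Library totals lay between about 27185900 and 33556600 expected counts over the 19 libraries. Keratin 5 and keratin 14, which define the basal keratinocytes, were present in every mouse: Krt5 stood at 3356, 5569.6 and 5600.4 counts per 1000000 (CPM) after AFL and at 9404, 8409, 11166 and 7804 CPM after vismodegib (log2 fold change -0.93 ± 0.35 standard error (SE), adjusted p = 0.106). Here and below, values are in CPM on TMM-scaled library sizes and follow the order of mice 2, 7 and 11 for AFL and of mice 1, 6, 9 and 12 for vismodegib. They are not corrected for gene length, so they compare mice and not genes. Trp53, the floxed gene, stood at 31.5, 44.9 and 40.5 CPM after AFL and at 26.8, 53.2, 25.3 and 55.1 CPM after vismodegib. Untreated BCC skin held 23.6 to 36.3 CPM and healthy skin 94.0 to 143 CPM. All 7 treated mice were below every healthy mouse, and the treated groups overlapped (log2 fold change -0.04 ± 0.28 SE, adjusted p = 0.937). Healthy mice were also younger, and induction included x-rays as well as tamoxifen. The part of Trp53 deletion in the difference from healthy skin was not tested. Mouse 9 stood apart in composition, with a TMM scaling factor of 0.591 against 0.906 to 1.04 in the other 6 mice. Mice also differed in their hair cycle: the mean log2 CPM of 21 growing-hair genes was 8.41 in vismodegib mouse 6 and 3.67 in AFL mouse 11, and between -0.44 and 1.60 in the other 5. Where leaving out 1 mouse moved a list's count of calls by over 1.5 times, the count without it is given too.

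At an adjusted p under 0.05 in edgeR's quasi-likelihood test, 1442 of 15760 genes differed between the treatments, which is 9.15%. More genes were higher after AFL, 1054 genes or 6.69%, than after vismodegib, 388 genes or 2.46%. Of these, 942 and 298 differed at least 2-fold. The mice of the groups did not overlap for 3506 genes (22.2%), of which 2050 (13.0%) were higher after AFL and 1456 (9.24%) after vismodegib. The median log2 fold change over all genes was -0.06. Counts of calls in the lists below are to be read beside 6.69% and 2.46%, and a count near these shares does not set a list apart. Fold changes are AFL minus vismodegib throughout, so a negative log2 value means a higher level after vismodegib. The counts depended on which mice entered: without AFL mouse 2 they were 666 and 66, without AFL mouse 11 they were 707 and 140, and without vismodegib mouse 1 they were 651 and 179. With the 7 treated mice fitted alone they were 525 and 117, and with age as a covariate 472 and 82. AFL took 73.1% of all calls, or 87.6% when libraries were scaled by their totals alone, which moved the all-gene median from -0.06 to 0.16.

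**Figure D1:**
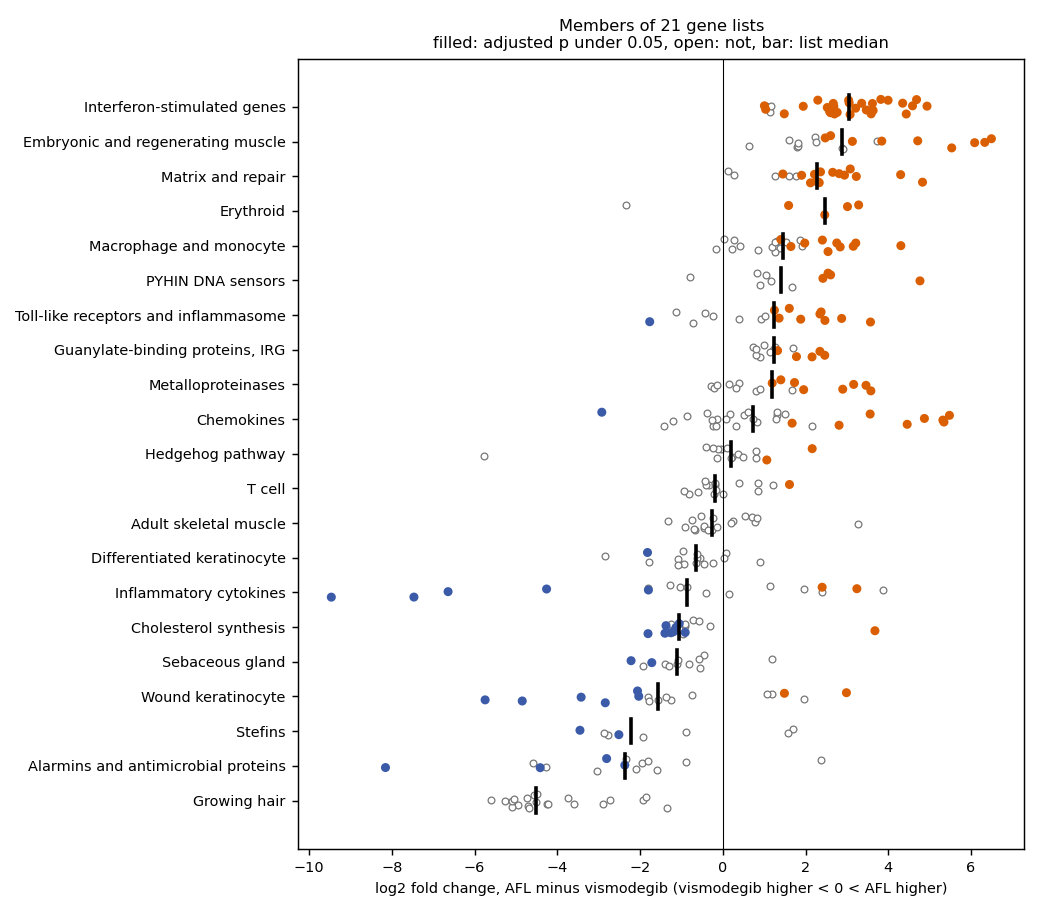
Log2 fold change of AFL minus vismodegib (x axis) for each tested member of 21 gene lists (y axis), 1 point a gene, with points spread vertically only to separate them. Filled points have an adjusted p under 0.05 (orange higher after AFL, blue higher after vismodegib), open points do not, and black bars are list medians. The interferon-stimulated genes lie to the right of 0 with a median of 3.04, and the growing-hair genes lie far to the left with no filled point.

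Gli1 and Gli2 of the Hedgehog pathway were below untreated BCC skin in all treated mice, and few genes of the pathway separated the treatments. Gli1, the transcription factor that is also the pathway's readout, stood at 153, 58.7 and 62.2 CPM after AFL and at 25.3, 101, 22.4 and 60.0 CPM after vismodegib, below the 258 to 314 CPM of untreated BCC skin in all 7 mice. The groups overlapped, and the log2 fold change was 0.81 ± 0.48 SE (adjusted p = 0.301). Gli2 is a second GLI factor. Ptch1 stood at 76.4, 24.1 and 29.8 and 29.0, 74.2, 29.7 and 57.8 CPM, so that mice 2 and 6 were within its untreated range of 68.6 to 125 CPM. The groups overlapped for both, with log2 fold changes of 0.36 ± 0.32 and -0.14 ± 0.44 SE (adjusted p = 0.505 and 0.871). These errors leave room for differences of either sign, so they do not show that the treatments acted alike.

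Hhip, a membrane protein that captures Hedgehog ligands and is induced by the pathway, was the exception. It stood at 34.7, 8.32 and 9.28 CPM after AFL and at 2.87, 5.17, 3.08 and 4.39 CPM after vismodegib, against 34.1 to 162 CPM in untreated BCC skin, a range that AFL mouse 2 just reached. All vismodegib mice were below all AFL mice, by 4.47-fold in the fit (log2 fold change 2.16 ± 0.54 SE, adjusted p = 0.0205). AFL mouse 2 set much of that size: without it the log2 fold change was 1.22 (adjusted p = 0.202), and the call was also lost without vismodegib mouse 1 (2.04). Cdon, a co-receptor for the ligands, stood at 62.1, 39.6 and 43.8 CPM after AFL and at 20.6, 20.2, 18.6 and 33.2 CPM after vismodegib (log2 fold change 1.06 ± 0.32 SE, adjusted p = 0.0479), a call that was lost when any of mice 1, 2, 6, 7, 9 and 11 was left out (0.89 to 1.19). Hhip and Cdon were the 2 of 15 Hedgehog pathway genes that passed the test, both higher after AFL, and the list median was 0.20. Neither passed without mouse 2 or mouse 1.

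Shh, the ligand Sonic hedgehog that growing follicles and tumours make, spread widely. It stood at 0.159, 0.0915 and 0.0620 CPM after AFL and at 0, 16.5, 1.65 and 4.20 CPM after vismodegib, highest in mouse 6, which also had the highest growing-hair score, and with no count in mouse 1. The groups overlapped (log2 fold change -5.78 ± 1.87 SE, adjusted p = 0.0654), although without mouse 1 it passed the test (-6.19, adjusted p = 0.0377). The log2 fold change of Shh was -4.29 without mouse 6 and -4.42 with the growing-hair score as a covariate. The part of the hair cycle in this value was not tested beyond these fits.

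Vax1, a forebrain and eye transcription factor, stood at 1.52, 0.579 and 0.713 CPM after AFL and at 0.273, 0.122, 0.159 and 0.126 CPM after vismodegib. Untreated BCC skin held 3.08 to 4.97 CPM and healthy skin 0 to 0.0552 CPM, so both treated groups lay between tumour and healthy skin, and the AFL mice lay nearer to the tumour (log2 fold change 2.46 ± 0.49 SE, adjusted p = 0.00547). Of 14 genes of embryonic follicles and BCC, 1 was higher in each direction. Runx1, a transcription factor of hair follicle stem cells, was higher after AFL (108, 81.4 and 125 against 47.2, 67.6, 34.3 and 46.4 CPM, log2 fold change 1.10 ± 0.27 SE, adjusted p = 0.0185), and Krt17, a keratin of the follicle sheath and of BCC, was higher after vismodegib (1934, 1316 and 1702 against 4174, 4783, 10362 and 2860.2 CPM, log2 fold change -1.75 ± 0.51 SE, adjusted p = 0.0413). Neither group overlapped the other for these genes. Runx1 was lost without mouse 2, 11 or 1 (0.96 to 1.12), and Krt17 without mouse 2, 7, 11, 1 or 9 (-1.86 to -1.29), while without mouse 6 there were 2 calls higher after AFL.

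**Figure D2:**
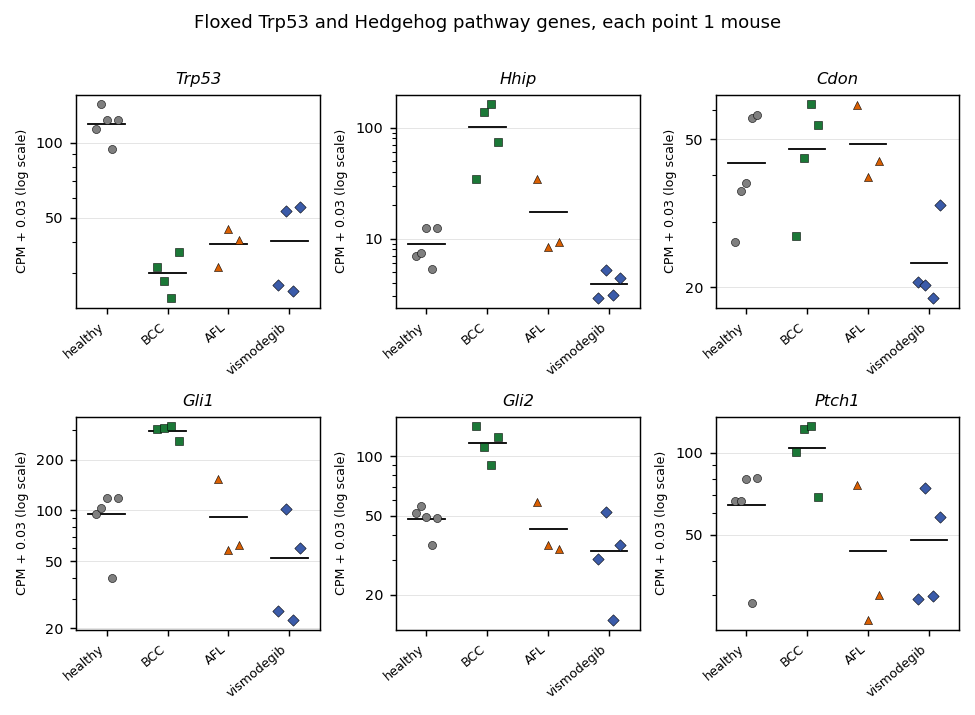
Trp53 and 5 Hedgehog pathway genes in CPM plus 0.03 on a log scale (y axis) by group (x axis), 1 point a mouse, with bars at group means. Trp53 is below healthy skin in all induced groups, Gli1, Gli2 and Ptch1 overlap between AFL and vismodegib, and Hhip does not.

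Of the gene lists tested, the one with the largest share of members called was that of interferon-stimulated genes. Interferons are secreted when cells sense viral or misplaced nucleic acid. They act through a complex of transcription factors on a short DNA element in promoters of the genes they induce, and the letters GAAANNGAAA (N is any base) are the core of that element. Of 31 interferon-stimulated genes tested, 22 have a promoter window in the RefSeq table (GRCm38.p6, 250 bases before to 50 after a start site), and 12 of these 22 (54.5%) hold the letters on either strand. Among all tested genes with a window the share was 3.83% (478 of 12485), and among all windows 3.44% (1131 of 32851). The count files use GRCm39, so the windows were matched by symbol. These 4 are shown because they hold the letters and their genes were higher in every AFL mouse than in any vismodegib mouse. They run from 250 bases before the start site up to it, 5′ to 3′ on the gene's strand, with every match in capitals. Rsad2 is chr12:26456453-26456702 on the minus strand with 1 match, Ifit3 chr19:34583279-34583528 and Ifit3b chr19:34607707-34607956 on the plus strand with 2 matches each, and Isg15 chr4:156200819-156201068 on the minus strand with 3 matches that overlap at their ends.
Rsad2: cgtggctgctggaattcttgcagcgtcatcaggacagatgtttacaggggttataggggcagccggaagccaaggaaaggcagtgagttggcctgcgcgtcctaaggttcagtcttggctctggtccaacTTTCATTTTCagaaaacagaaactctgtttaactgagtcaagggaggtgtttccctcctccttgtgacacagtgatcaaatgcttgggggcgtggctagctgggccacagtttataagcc
Ifit3: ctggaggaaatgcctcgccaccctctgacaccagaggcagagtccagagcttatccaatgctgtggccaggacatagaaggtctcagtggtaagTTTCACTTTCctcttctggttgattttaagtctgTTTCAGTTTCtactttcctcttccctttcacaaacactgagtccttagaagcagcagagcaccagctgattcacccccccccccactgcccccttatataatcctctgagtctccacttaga
Ifit3b: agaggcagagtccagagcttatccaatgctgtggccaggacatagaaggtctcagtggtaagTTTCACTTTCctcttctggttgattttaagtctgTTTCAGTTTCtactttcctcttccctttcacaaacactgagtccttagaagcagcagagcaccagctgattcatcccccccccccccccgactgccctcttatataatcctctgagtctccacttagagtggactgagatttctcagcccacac
Isg15: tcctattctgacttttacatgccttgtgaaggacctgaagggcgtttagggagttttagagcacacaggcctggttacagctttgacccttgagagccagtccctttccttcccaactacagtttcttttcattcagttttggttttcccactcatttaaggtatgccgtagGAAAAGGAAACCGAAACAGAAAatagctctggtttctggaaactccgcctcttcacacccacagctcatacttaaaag
The windows of Ifit3 and Ifit3b share long stretches, and both pairs of matches are the same letters, TTTCACTTTC and TTTCAGTTTC, on the opposite strand. A match is a description of letters and not a measured binding site.

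These genes were high in every AFL mouse and low in every vismodegib mouse. Rsad2, which encodes the antiviral enzyme viperin, stood at 38.1, 38.0 and 43.5 CPM after AFL and at 0.820, 1.52, 0.637 and 2.12 CPM after vismodegib, 30.6-fold higher after AFL (log2 fold change 4.94 ± 0.55 SE, adjusted p = 0.000145). Ifit3, a protein of complexes that bind viral RNA, stood at 358, 208 and 193 CPM after AFL and at 5.29, 9.98, 15.7 and 18.6 CPM after vismodegib (20.4-fold, log2 fold change 4.35 ± 0.50 SE). The near-identical Ifit3b ran at 78.0, 47.3 and 38.2 CPM and 1.54, 2.25, 1.81 and 3.40 CPM (log2 fold change 4.59 ± 0.52 SE), and reads of the pair may be split between the copies. Isg15, a ubiquitin-like protein, followed at 111, 94.2 and 81.2 CPM and 8.20, 13.5, 25.8 and 12.5 CPM (log2 fold change 2.67 ± 0.44 SE). Untreated BCC skin held 0.348 to 2.18 CPM of Rsad2, a range that includes all 4 vismodegib mice, and 5.45 to 13.5 CPM of Ifit3, a range that mouse 6 was within, mouse 1 below and mice 9 and 12 above.

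The regulators moved in the same direction. Irf7, the factor that amplifies interferon production, stood at 267, 283 and 154 CPM after AFL and at 10.7, 22.8, 9.29 and 16.0 CPM after vismodegib, 16.0-fold higher after AFL (log2 fold change 4.00 ± 0.37 SE, adjusted p = 8.09e-05). Dhx58, a cytoplasmic sensor of viral RNA, stood at 45.0, 55.5 and 40.3 CPM and 6.90, 6.67, 6.58 and 8.71 CPM (log2 fold change 2.70 ± 0.29 SE, adjusted p = 0.000145). Xaf1, a promoter of cell death, stood at 174, 118 and 101 CPM and 18.6, 25.5, 17.6 and 29.1 CPM (log2 fold change 2.53 ± 0.28 SE, adjusted p = 0.000145). For none of these 3 did the groups overlap.

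In all, 28 of the 31 genes were higher after AFL and none was higher after vismodegib, against 6.69% and 2.46% of all genes, with a list median of 3.04 against -0.06. The AFL mice held a summed 3123, 2635 and 2194 CPM of the list and the vismodegib mice 405, 410.4, 649 and 618 CPM. Irf7, Rsad2, Ifit3, Dhx58 and Xaf1 passed the test in all 22 alternatives run, and between 27 and 29 members passed with any 1 mouse left out. The 3 members that did not pass were Isg20 (1.04 ± 0.43 SE), Ifih1 (1.13 ± 0.49 SE) and Ifi27l2a (1.16 ± 0.72 SE). Mouse 9 was the highest vismodegib mouse for all 3: it held 22.9 CPM of Isg20 against at most 7.14 CPM in the other vismodegib mice, and without it Isg20 passed (1.73, adjusted p = 0.00284). In whole skin, more RNA of a gene per cell and more cells that make it cannot be told apart. Macrophage markers, described below, were also higher after AFL, and their part in the interferon values was not tested.

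Genes that interferon-γ induces as well as type I interferon separated the groups to a smaller degree. Irgm1, a GTPase that acts on membranes of engulfed microbes, stood at 134, 89.6 and 93.6 CPM after AFL and at 19.5, 13.3, 23.8 and 26.4 CPM after vismodegib (log2 fold change 2.35 ± 0.38 SE, adjusted p = 0.00131). Its relative Irgm2 stood at 70.5, 53.1 and 43.9 CPM and 17.6, 9.22, 16.4 and 21.7 CPM (log2 fold change 1.78 ± 0.34 SE), and Gbp3, a guanylate-binding protein, at 55.9, 45.6 and 36.3 CPM and 7.41, 3.29, 17.8 and 12.7 CPM (log2 fold change 2.16 ± 0.52 SE). No AFL mouse overlapped a vismodegib mouse for any of them. Of 14 guanylate-binding proteins and immunity-related GTPases, 5 were higher after AFL, 9 did not pass, and the median was 1.23. Gbp3 was lost without mouse 2 (2.05) or mouse 1 (2.03), and the count fell to 2 without either and to 3 without mouse 6.

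Sensors of DNA were higher in part. Of 10 PYHIN genes, a family whose members bind DNA, 4 were higher after AFL and none after vismodegib. Ifi208 stood at 3.96, 2.29 and 3.16 CPM after AFL and at 0.0683, 0.0609, 0.159 and 0.157 CPM after vismodegib (27.2-fold, log2 fold change 4.77 ± 0.58 SE, adjusted p = 0.000188). Ifi203 stood at 20.9, 18.3 and 24.0 and 3.38, 1.13, 5.74 and 4.26 CPM (log2 fold change 2.54 ± 0.53 SE) and Ifi207 at 25.1, 30.0 and 36.8 and 6.25, 2.07, 6.85 and 7.70 CPM (log2 fold change 2.42 ± 0.55 SE). These family members resemble one another, so reads may be shared among them.

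Toll-like receptors of the endosome, which read engulfed RNA and DNA, were among the higher genes after AFL. Tlr7 stood at 43.7, 30.4 and 41.2 CPM after AFL and at 2.46, 2.40, 11.8 and 4.39 CPM after vismodegib (log2 fold change 2.87 ± 0.61 SE, adjusted p = 0.00789), with the highest vismodegib value in mouse 9. Without mouse 9 the log2 fold change was 3.60. Tlr8 stood at 52.6, 41.4 and 49.0 and 6.22, 3.01, 13.8 and 11.4 CPM (log2 fold change 2.47 ± 0.50 SE), and the DNA receptor Tlr9 at 12.6, 15.5 and 8.98 and 2.25, 1.34, 1.86 and 3.99 CPM (log2 fold change 2.38 ± 0.48 SE). All 3 were non-overlapping. Of 17 genes of this list, 9 were higher after AFL and 1 after vismodegib, with a median of 1.25.

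The inflammasome scaffold Nlrp3 is counted among the 9 but rests on 1 mouse. It stood at 14.2, 4.12 and 167 CPM after AFL and at 4.34, 2.98, 6.37 and 7.06 CPM after vismodegib, so that AFL mouse 11 was far above all others and AFL mouse 7 was inside the vismodegib range. Its log2 fold change of 3.57 ± 0.86 SE (adjusted p = 0.0168) became 0.82 (adjusted p = 0.423) without mouse 11, and it was lost by a small margin without mouse 1 (3.49). Nod2, a cytoplasmic sensor of bacterial cell walls, was the member that was higher after vismodegib, at 11.3, 14.4 and 17.1 CPM after AFL against 81.2, 26.8, 35.3 and 50.8 CPM (log2 fold change -1.77 ± 0.45 SE, adjusted p = 0.023). The groups did not overlap for Nod2, but the call was lost without mouse 2, 7, 11 or 1 (-1.90 to -1.40).

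Antigen presentation did not separate the groups at the threshold. None of 16 genes passed in edgeR's quasi-likelihood test, and the list median was 0.42. At an unadjusted p under 0.05 there were 3, DESeq2 called 1 and limma voom 0. The smallest p was that of H2-T23, a non-classical class I molecule, at 210.3, 284 and 136 CPM after AFL and 108, 70.4, 122 and 118 CPM after vismodegib (log2 fold change 1.01 ± 0.32 SE, adjusted p = 0.0613). Without mouse 11 it passed (1.26, adjusted p = 0.0404).

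Macrophages take up dead cells and debris in a wound, and several of their markers were high in all 3 AFL mice. Trem2, a lipid receptor of phagocytes, stood at 89.5, 89.9 and 80.0 CPM after AFL and at 1.43, 4.81, 6.85 and 4.45 CPM after vismodegib, 19.8-fold higher after AFL (log2 fold change 4.30 ± 0.47 SE, adjusted p = 0.000145). Adgre1, the surface protein F4/80, stood at 224, 192 and 162 CPM and 20.4, 24.6, 35.3 and 33.6 CPM (log2 fold change 2.76 ± 0.32 SE), and the lysosomal marker Cd68 at 318, 361 and 313 CPM and 59.6, 45.6, 67.4 and 76.5 CPM (log2 fold change 2.41 ± 0.29 SE). None of these genes overlapped between the groups, and untreated BCC skin held 2.86 to 4.32 CPM of Trem2 and 25.0 to 34.4 CPM of Cd68.

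Of 24 macrophage and monocyte genes, 10 were higher after AFL and none after vismodegib, with a median of 1.47. None of the 24 was at 0 in any mouse. The list summed to 5336, 4520.5 and 6412 CPM after AFL and to 1119, 1030.0, 3584 and 1649 CPM after vismodegib. Mouse 9 was the highest of the vismodegib mice, and without it 16 members passed (median 1.92), while without mouse 11 there were 7 (median 1.33). The mannose receptor Mrc1 and the haemoglobin scavenger receptor Cd163, markers of resident and repair macrophages, did not follow: Mrc1 stood at 211, 174 and 359 CPM after AFL and 179, 87.1, 347 and 203 CPM after vismodegib (log2 fold change 0.28 ± 0.50 SE, adjusted p = 0.752), and Cd163 at 41.4, 47.6 and 92.6 and 62.6, 41.1, 68.7 and 64.1 CPM (log2 fold change 0.03 ± 0.43 SE, adjusted p = 0.969).

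Complement is a cascade of plasma proteins whose fragments C3a and C5a call in phagocytes. Their receptors were both higher after AFL: C3ar1 stood at 243, 150.0 and 238 CPM after AFL and at 15.2, 11.5, 27.03 and 20.3 CPM after vismodegib (log2 fold change 3.51 ± 0.37 SE, adjusted p = 0.000145), and C5ar1 at 72.3, 102 and 132 and 17.9, 10.9, 27.3 and 25.1 CPM (log2 fold change 2.33 ± 0.39 SE). C2, a protease of the cascade, was higher too (log2 fold change 1.48 ± 0.31 SE, adjusted p = 0.00682). The other 9 of 12 complement genes did not pass, and the median was 0.81. Without mouse 9 there were 5 calls.

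**Figure D3:**
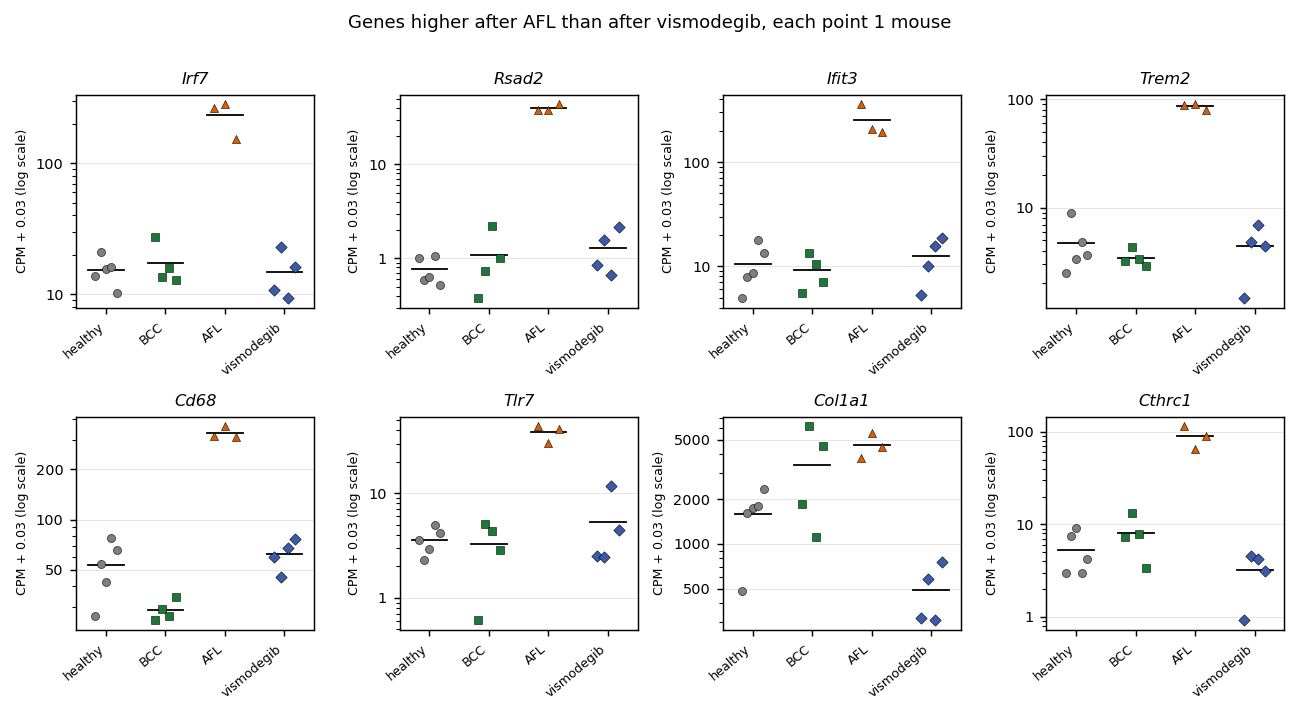
Genes of interferon response, macrophages, nucleic acid sensing and matrix in CPM plus 0.03 on a log scale (y axis) by group (x axis), 1 point a mouse, with bars at group means. In all 8 panels the 3 AFL mice lie above the 4 vismodegib mice, and for Irf7, Rsad2, Ifit3, Trem2, Cd68, Tlr7 and Cthrc1 they also lie above untreated BCC and healthy skin.

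Chemokines, which steer leukocytes, differed in both directions. Cxcl10, an interferon-induced attractant of T cells, stood at 8.69, 8.51 and 7.01 CPM after AFL and at 0.376, 0.396, 0.956 and 0.990 CPM after vismodegib (log2 fold change 3.56 ± 0.46 SE, adjusted p = 0.000295). Ccl5, another attractant of T cells and monocytes, stood at 5.26, 7.56 and 3.55 CPM and 0.615, 0.609, 0.531 and 1.29 CPM (log2 fold change 2.81 ± 0.44 SE, adjusted p = 0.00108). Both passed the test in all 22 alternatives run. Ccl20, which draws cells with the receptor Ccr6, was higher after vismodegib, at 3.58, 5.61 and 3.13 CPM after AFL and 56.8, 9.83, 45.5 and 12.6 CPM after vismodegib (log2 fold change -2.92 ± 0.76 SE, adjusted p = 0.025), with no overlap. That call was lost without mouse 2, 7, 11 or 1 (-3.21 to -2.46).

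AFL mouse 11 carried a further set of inflammatory genes at levels the other AFL mice did not reach. Ccl3, an attractant of macrophages, stood at 17.5, 4.88 and 179 CPM after AFL and at 0.649, 1.83, 3.03 and 1.30 CPM after vismodegib, a log2 fold change of 5.32 ± 1.00 SE (adjusted p = 0.00367) that became 2.73 without mouse 11. Cxcl2, an attractant of neutrophils, stood at 40.9, 8.08 and 567 CPM and 1.81, 1.19, 14.2 and 1.67 CPM with overlap between the groups (log2 fold change 5.48 ± 1.39 SE, adjusted p = 0.0249). Without mouse 11 it was 2.42 (adjusted p = 0.212), and the call was also lost without mouse 1, 6 or 12 (5.16 to 5.21). Of 29 chemokines, 8 were higher after AFL and 1 after vismodegib, with a median of 0.74. Without mouse 11 the 8 became 3, without mouse 1 or 12 they became 4, without mouse 6 they became 5, and without mouse 9 they became 12.

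Neutrophil genes showed the same dependence. The list of 17 summed to 300.1, 202 and 1373 CPM after AFL and to 181, 119, 517 and 354 CPM after vismodegib, with none of the 17 at 0. Only Mmp9, a matrix protease of neutrophils and macrophages, passed the test, at 68.5, 82.0 and 185 CPM after AFL and 13.6, 9.62, 18.4 and 19.99 CPM after vismodegib (log2 fold change 2.86 ± 0.44 SE, adjusted p = 0.000871). Trem1, an activating receptor of neutrophils, stood at 18.96, 3.23 and 151 CPM and 5.05, 2.47, 15.3 and 6.19 CPM and did not pass (log2 fold change 3.00 ± 0.96 SE, adjusted p = 0.0625), although without mouse 7 it did (3.55). The neutrophil chemokine receptor Cxcr2 stood at 11.9, 5.21 and 107 CPM and 54.8, 21.7, 73.5 and 78.2 CPM (log2 fold change -0.46 ± 0.72 SE, adjusted p = 0.715), and without mouse 11 it was higher after vismodegib (-2.72, adjusted p = 0.0127). The list median of 0.82 changed sign without mouse 11 (-0.37), so no direction is given for it. Calls higher after AFL numbered 4 without mouse 9 and 3 without mouse 7.

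Lymphocyte markers were low and few passed. Among 13 cytotoxic and natural killer genes, Ncr1, an activating receptor of natural killer cells, stood at 2.09, 1.92 and 0.512 CPM after AFL and 0.0683, 0.122, 0.266 and 0.346 CPM after vismodegib (log2 fold change 2.85 ± 0.60 SE, adjusted p = 0.0078), and the granule protease Gzma at 2.60, 2.71 and 0.791 and 0.0342, 0.243, 0.372 and 0.252 CPM (log2 fold change 3.18 ± 0.74 SE, adjusted p = 0.0141). Both were higher after AFL with no overlap, the other 11 did not pass, and the list summed to 53.5, 46.2 and 17.9 CPM after AFL and 17.5, 8.89, 44.6 and 20.7 CPM after vismodegib, which overlap. Without mouse 11 there were 4 calls. Of 16 T cell genes, 1 passed: the co-stimulatory receptor Cd28, at 6.15, 3.11 and 2.56 CPM and 1.61, 0.517, 1.38 and 1.68 CPM (log2 fold change 1.60 ± 0.46 SE, adjusted p = 0.0397). It was lost without mouse 2, 7, 1, 6 or 9 (1.18 to 1.74). The T cell receptor chain Cd3e stood at 3.55, 4.42 and 1.94 and 5.81, 2.04, 2.23 and 6.33 CPM (log2 fold change -0.32 ± 0.55 SE, adjusted p = 0.741). Cd79b, a chain of the B cell receptor, was the 1 of 5 B cell genes that passed (log2 fold change 2.17 ± 0.56 SE, adjusted p = 0.0245), and it was lost without mouse 2, 1 or 6 (2.00 to 2.03), while 2 passed without mouse 9.

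Genes that dampen immunity differed in part. Lgals9, a galectin that binds glycans on T cells, stood at 180.3, 160.1 and 156 CPM after AFL and at 66.9, 49.0, 51.8 and 59.0 CPM after vismodegib (log2 fold change 1.55 ± 0.22 SE, adjusted p = 0.000476). Vsir, the checkpoint protein VISTA of myeloid cells, stood at 136, 161 and 137 and 61.0, 54.8, 49.1 and 81.1 CPM (log2 fold change 1.23 ± 0.29 SE, adjusted p = 0.014). Both were higher in every AFL mouse. Tgfb1, a growth factor of repair and tolerance, was the third of 15 to pass (log2 fold change 1.08 ± 0.31 SE, adjusted p = 0.04) and was lost without any of mice 7, 11, 1, 6, 9 and 12 (0.87 to 1.20). Foxp3, the factor of regulatory T cells, stood at 4.79, 7.14 and 3.80 and 14.7, 4.87, 5.68 and 12.3 CPM (log2 fold change -0.84 ± 0.47 SE, adjusted p = 0.267), and the list median was 0.29.

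Of 15 genes of Langerhans and dendritic cells, 3 were higher after AFL. Itgax, the integrin CD11c, stood at 51.8, 49.9 and 26.6 CPM after AFL and 14.7, 7.12, 9.98 and 14.7 CPM after vismodegib (log2 fold change 1.88 ± 0.34 SE, adjusted p = 0.00303), the activation marker Cd83 at 40.2, 35.6 and 13.1 and 7.41, 4.99, 9.56 and 8.19 CPM (log2 fold change 1.98 ± 0.40 SE), and Irf8, a factor of dendritic cell development, at 58.8, 75.9 and 45.1 and 22.0, 12.3, 26.9 and 32.4 CPM (log2 fold change 1.36 ± 0.34 SE). Irf8 was lost without mouse 7 (1.15) or mouse 1 (1.33). Mast cell genes gave 2 of 13 calls. The tryptase Tpsab1 stood at 7.39, 6.34 and 8.48 CPM after AFL and 1.37, 1.34, 1.96 and 1.70 CPM after vismodegib (log2 fold change 2.22 ± 0.30 SE, adjusted p = 0.000324), with no overlap. Il1rl1, the receptor for interleukin 33, passed (log2 fold change 1.59 ± 0.45 SE, adjusted p = 0.04) and was lost without mouse 2, 11, 1 or 6 (1.02 to 1.79). The mast cell list summed to 813, 542 and 775 CPM and 322, 294, 846 and 752 CPM, which overlap.

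Matrix genes were high in all 3 AFL mice. Col1a1, the main chain of type I collagen, stood at 3797, 5531 and 4442 CPM after AFL and at 317, 583, 307 and 752 CPM after vismodegib, 9.37-fold higher after AFL (log2 fold change 3.23 ± 0.58 SE, adjusted p = 0.00288). Col3a1, the collagen of early scars, stood at 9576, 8388 and 8910.5 and 768, 1604, 2168 and 2429 CPM (log2 fold change 2.36 ± 0.52 SE), and Col5a1, which starts collagen fibrils, at 569, 676 and 636 and 46.2, 86.1, 52.1 and 112 CPM (log2 fold change 3.08 ± 0.44 SE, adjusted p = 0.000525). Untreated BCC skin spanned 1111 to 6145 CPM of Col1a1, which holds the whole AFL range, while all 4 vismodegib mice lay below it.

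Other genes of repair were higher after AFL too. Cthrc1, a secreted protein of activated fibroblasts, stood at 115, 64.8 and 91.3 CPM after AFL and at 0.888, 4.50, 4.20 and 3.13 CPM after vismodegib, 28.4-fold higher after AFL (log2 fold change 4.83 ± 0.58 SE, adjusted p = 0.000188), against 3.38 to 13.2 CPM in untreated BCC skin. Loxl2, a cross-linker of collagen, stood at 328, 212 and 333 CPM and 48.9, 72.5, 48.4 and 73.3 CPM (log2 fold change 2.26 ± 0.31 SE, adjusted p = 0.000371). Spp1, the adhesive protein osteopontin of macrophages and fibroblasts, stood at 95.3, 77.2 and 416 CPM and 6.86, 5.39, 19.9 and 7.86 CPM (log2 fold change 4.30 ± 0.65 SE, adjusted p = 0.000841), highest in AFL mouse 11, without which it was 3.14. Of 20 genes of matrix and repair, 15 were higher after AFL and none after vismodegib, with a median of 2.28 and between 13 and 16 calls with any 1 mouse left out. The protease inhibitor Timp1 was one of the 5 that did not pass, at 109, 69.2 and 399 CPM after AFL and 61.7, 44.4, 405 and 132 CPM after vismodegib (log2 fold change 0.26 ± 0.72 SE, adjusted p = 0.846).

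Of 12 resident fibroblast markers 10 had a log2 fold change above 0, with a median of 0.69, and 1 passed. It was Mfap5, a protein of elastic microfibrils (152, 85.9 and 143 against 11.0, 34.6, 69.5 and 28.2 CPM, log2 fold change 1.83 ± 0.48 SE, adjusted p = 0.0256), and it was lost without mouse 2, 11, 1 or 12 (1.53 to 1.74). The list summed to 5182, 3695 and 4039 CPM after AFL and to 2362, 1538, 8631 and 3085 CPM after vismodegib, with mouse 9 above every AFL mouse and the other 3 vismodegib mice below. Without mouse 9 there were 3 calls and the median was 0.98, and without mouse 7 there were 2 calls. The part of fibroblast number in the collagen values was not tested.

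Proteases that cut matrix were higher after AFL as well. Mmp12, the elastase of macrophages, stood at 184, 91.4 and 113 CPM after AFL and at 7.72, 6.00, 26.98 and 6.60 CPM after vismodegib (log2 fold change 3.46 ± 0.56 SE, adjusted p = 0.00127), with mouse 9 the highest of the vismodegib mice (4.22 without it). Mmp19 stood at 114, 132 and 98.4 and 25.4, 22.4, 39.2 and 50.9 CPM (log2 fold change 1.73 ± 0.33 SE), and the membrane-bound Adam8 of leukocytes at 98.1, 193 and 309 and 68.2, 33.2, 37.2 and 67.6 CPM (log2 fold change 1.96 ± 0.39 SE). None of the 3 overlapped between the groups. Of 17 genes of the list, 8 were higher after AFL, none was higher after vismodegib, and the median was 1.20. Without mouse 11 the 8 became 5.

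The urokinase and coagulation genes gave 5 calls higher after AFL and 1 higher after vismodegib, of 14. F7, the protease that starts coagulation with tissue factor, stood at 14.4, 16.3 and 9.37 CPM after AFL and at 1.47, 1.46, 0.903 and 1.19 CPM after vismodegib (log2 fold change 3.40 ± 0.41 SE, adjusted p = 0.000188). Its inhibitor relative Tfpi2 stood at 15.0, 11.1 and 25.6 and 0.581, 1.40, 2.07 and 2.78 CPM (log2 fold change 3.33 ± 0.61 SE). Groups did not overlap for either gene. Procr, the receptor of activated protein C, went the other way, at 13.6, 15.9 and 27.6 CPM after AFL and 53.9, 34.2, 115 and 50.8 CPM after vismodegib (log2 fold change -1.73 ± 0.42 SE, adjusted p = 0.018), a call lost without mouse 2 (-1.47) or mouse 7 (-1.62).

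Most of the red cell transcripts tested were more abundant in AFL skin. Hba-a1, a chain of haemoglobin, stood at 1191, 409 and 604 CPM after AFL and at 123, 74.4, 124 and 41.5 CPM after vismodegib (log2 fold change 3.01 ± 0.51 SE, adjusted p = 0.00196), and its near-identical copy Hba-a2 may share its reads. Alas2, the haem synthesis enzyme of red cell precursors, stood at 44.5, 15.5 and 18.3 and 5.50, 4.26, 7.49 and 1.76 CPM (log2 fold change 2.47 ± 0.53 SE, adjusted p = 0.00873) and was lost without mouse 2 (1.89). The erythropoietin receptor Epor also passed (log2 fold change 1.59 ± 0.31 SE, adjusted p = 0.00503). In all, 4 of 5 tested genes were higher after AFL, and 2 without mouse 2. The remaining gene went the other way (log2 fold change -2.34) and did not pass. Of 18 endothelial genes 2 were higher after AFL, the adhesion molecule Vcam1 (43.0, 43.4 and 40.6 against 7.75, 5.20, 18.9 and 13.4 CPM, log2 fold change 1.90 ± 0.44 SE, adjusted p = 0.0131) and the junction protein Esam (log2 fold change 1.21 ± 0.37 SE), which was lost without any of mice 7, 11, 1, 6, 9 and 12 (0.74 to 1.37). Pecam1, the general marker of endothelium, stood at 100.1, 190.0 and 151 and 102, 49.4, 46.3 and 77.3 CPM and did not pass (log2 fold change 1.10 ± 0.35 SE, adjusted p = 0.0614), except without mouse 1 (1.35). Among 8 pericyte genes the growth factor receptor Pdgfrb passed (log2 fold change 1.03 ± 0.30 SE, adjusted p = 0.0441), and it too was lost in 6 of the 7 exclusions (0.84 to 1.19).

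Among genes whose groups did not overlap and whose AFL mean was at least 1 CPM, 5 of the 10 largest fold changes toward AFL belonged to embryonic and regenerating muscle (Myh3, Mymx, Tnnc1, Actc1 and Mymk). Skin of mice rests on a thin sheet of skeletal muscle, the panniculus carnosus. When muscle fibres are injured, its stem cells fuse into new fibres that pass through embryonic forms of myosin and actin before the adult forms return. Myh3, embryonic myosin heavy chain, stood at 44.1, 238 and 98.5 CPM after AFL and at 1.74, 0, 0.212 and 4.07 CPM after vismodegib (log2 fold change 6.33 ± 1.04 SE, adjusted p = 0.00166). Actc1, the actin of heart and of embryonic muscle, stood at 31.1, 184 and 63.8 CPM and 0.478, 0.0304, 0 and 3.32 CPM (log2 fold change 6.49 ± 1.15 SE, adjusted p = 0.00277). Every AFL mouse was above every vismodegib mouse, and untreated BCC skin held at most 0.191 CPM of Myh3 and 0.0933 CPM of Actc1.

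The fusion proteins of muscle precursors were present as well. Mymk, myomaker, stood at 2.57, 24.8 and 4.81 CPM after AFL and at 0.615, 0, 0.106 and 0.189 CPM after vismodegib (log2 fold change 5.53 ± 0.90 SE, adjusted p = 0.00133), and Mymx, myomixer, at 0.476, 3.57 and 2.23 and 0, 0.0304, 0.0531 and 0.0314 CPM (log2 fold change 6.09 ± 1.07 SE, adjusted p = 0.0024). Myl4, the embryonic light chain, stood at 26.3, 108 and 29.3 and 2.08, 0.457, 4.46 and 1.45 CPM (log2 fold change 4.71 ± 0.66 SE), and Tnnc1, slow troponin C, at 7.33, 24.3 and 13.8 and 0, 0.122, 0.266 and 0.487 CPM (log2 fold change 6.01 ± 0.89 SE). AFL mouse 7 was the highest for all of these.

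Ncam1, an adhesion molecule of regenerating fibres, nerve and BCC, differed from the rest in its untreated level. It stood at 63.6, 76.7 and 52.5 CPM after AFL and 17.04, 9.53, 9.45 and 10.2 CPM after vismodegib (log2 fold change 2.48 ± 0.32 SE, adjusted p = 0.000307), and untreated BCC skin held 44.6 to 90.3 CPM, so the AFL mice lay within the tumour range and the vismodegib mice below it. Of 19 genes of this list 9 were higher after AFL and none after vismodegib, with a median of 2.89. Myog, the factor of terminal muscle differentiation, stood at 9.96, 63.4 and 23.2 CPM and 9.43, 0.335, 6.53 and 1.18 CPM without overlap but did not pass (log2 fold change 2.89 ± 0.91 SE, adjusted p = 0.058).

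Adult muscle transcripts varied widely between mice of both groups. The 19 adult skeletal muscle genes summed to 3630.4, 17196 and 1302 CPM after AFL and to 16306, 3226, 8632 and 5174 CPM after vismodegib, and none of them passed edgeR's test (median -0.26), with 1 at an unadjusted p under 0.05 and none by DESeq2 or limma voom. The order of the mice in adult muscle matched that in Myh3 only in part. AFL mouse 7 had the most of both. AFL mouse 11 had the least adult muscle and the second highest Myh3. Vismodegib mouse 1 had the second highest adult muscle and 1.74 CPM of Myh3. The part of muscle content in the embryonic muscle values was not tested. The list's 9 calls became 7 without mouse 7 and 10 without mouse 1, and the fold changes of named members depended on single mice. Without mouse 7 Myh3 was 5.52, Actc1 5.55, Mymk 4.00, Mymx 5.48 and Myl4 3.74. Without mouse 12 Myh3 was 7.57, Actc1 8.99 and Tnnc1 6.96, without mouse 1 Mymk was 6.60, and without mouse 9 Myl4 was 5.34.

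**Figure D4:**
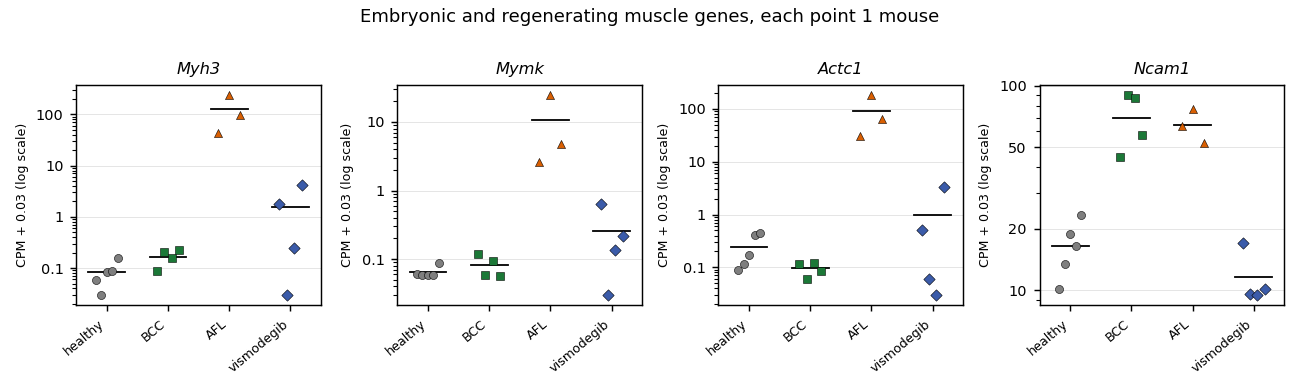
Genes of embryonic and regenerating muscle in CPM plus 0.03 on a log scale (y axis) by group (x axis), 1 point a mouse, with bars at group means. The AFL mice lie above all vismodegib mice in each panel, and for Myh3, Mymk and Actc1 also above all untreated BCC and healthy mice, while Ncam1 is as high in untreated BCC skin.

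The other 5 of the 10 largest toward AFL were Ccl3, described above, and 4 genes of no list. Ptprn, a protein of secretory granules in neuroendocrine cells, stood at 3.84, 7.71 and 9.06 CPM after AFL and at 0.0683, 0, 0.159 and 0.110 CPM after vismodegib (log2 fold change 6.34 ± 0.73 SE, adjusted p = 0.000145). Tm4sf19, a membrane protein of the tetraspanin-like TM4SF family, stood at 3.65, 3.66 and 3.07 and 0.0683, 0.0913, 0 and 0.0629 CPM (log2 fold change 5.77 ± 0.68 SE, adjusted p = 0.000173). Both were nearly silent in all vismodegib mice. Ibsp, the bone sialoprotein of mineralised matrix, stood at 4.63, 2.68 and 1.55 and 0, 0.0609, 0.106 and 0 CPM (log2 fold change 6.41 ± 1.25 SE, adjusted p = 0.00488), and was 7.16 without mouse 9 and 5.76 without mouse 12. Prl2c3, a proliferin of the prolactin family, stood at 12.7, 1.43 and 28.1 and 0, 0, 0 and 0.267 CPM (log2 fold change 7.23 ± 1.62 SE, adjusted p = 0.0185). It was lost without mouse 11 (6.24) or mouse 1 (6.90), reached 12.03 without mouse 12, the one vismodegib mouse with any counts, and has near-identical family members that may share its reads.

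On the vismodegib side, 3 of the 10 largest differences chosen in the same way were in cytokines of type 17 immunity, Il22, Il17f and Il17a, and the others were Sprr2b, Sprr2d, Sprr2i, Defb3, Alox8, Uox and Serpinb3a, described below. Interleukins 17A, 17F and 22 are made by γδ T cells, Th17 cells and innate lymphoid cells, and they drive keratinocytes to make antimicrobial proteins, chemokines and cornified envelope proteins. Il17f stood at 0.0634, 0.0915 and 0.0620 CPM after AFL and at 7.04, 3.41, 35.4 and 6.81 CPM after vismodegib (log2 fold change -7.46 ± 1.01 SE, adjusted p = 0.000371). Il17a stood at 0.0634, 0 and 0.0310 CPM and 1.64, 1.55, 8.87 and 1.76 CPM (log2 fold change -6.64 ± 1.04 SE, adjusted p = 0.00103). The AFL mice held 9 counts of Il17f and 4 of Il17a in all. Every vismodegib mouse was above every AFL mouse, and untreated BCC skin held 0.0579 to 0.245 CPM of Il17f and 0 to 0.0545 CPM of Il17a.

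Il22 had no count in any AFL mouse and stood at 1.13, 0.0913, 5.63 and 2.34 CPM after vismodegib. Against a floor of 3 counts over the AFL group it was at least 86.4-fold higher after vismodegib, a bound for counting error only (adjusted p = 0.0168). Mouse 6 contributed little, at 0.0913 CPM. The call was lost without mouse 11 (adjusted p = 0.0531), and the gene did not pass the count filter without mouse 1, 9 or 12. Il19, a cytokine of the interleukin 10 family made by keratinocytes, stood at 1.40, 0.244 and 1.60 and 4.64, 13.7, 59.2 and 6.18 CPM (log2 fold change -4.26 ± 0.96 SE, adjusted p = 0.0116), and Lif, a cytokine of the interleukin 6 family, at 1.93, 1.98 and 4.27 and 17.3, 7.15, 6.16 and 7.50 CPM (log2 fold change -1.80 ± 0.42 SE, adjusted p = 0.0151). Lif was lost without mouse 2, 7 or 1 (-1.61 to -1.34).

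Mouse 9 was the highest for Il17a, Il17f, Il22 and Il19. Without it, when Il22 did not pass the count filter, the log2 fold changes were -5.63 for Il17a, -6.30 for Il17f and -2.95 for Il19, all with an adjusted p under 0.05. The T cell list, whose cells could make these cytokines, summed to 182, 194 and 117 CPM after AFL and 136, 99.9, 209 and 165 CPM after vismodegib, and the part of T cell number was not tested. Of 17 inflammatory cytokines 5 were higher after vismodegib and 2 after AFL, with a median of -0.87 that was 0.53 without mouse 9, so the list has no direction of its own. Without mouse 1 the 5 became 3, and the 2 became 1 without mouse 11, 6 or 12 and 4 without mouse 7. Osm, a macrophage and neutrophil cytokine, stood at 8.09, 6.28 and 52.9 and 2.15, 2.65, 2.66 and 2.04 CPM (log2 fold change 3.24 ± 0.61 SE, adjusted p = 0.00387), and still passed without mouse 11 (1.60, adjusted p = 0.0442). Tnf, an alarm cytokine of macrophages, stood at 9.51, 2.93 and 54.7 and 6.56, 3.68, 3.24 and 3.47 CPM with overlap (log2 fold change 2.40 ± 0.67 SE, adjusted p = 0.0342), and was lost without mouse 11 (0.56), 6 (2.34), 9 (2.26) or 12 (2.32).

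**Figure D5:**
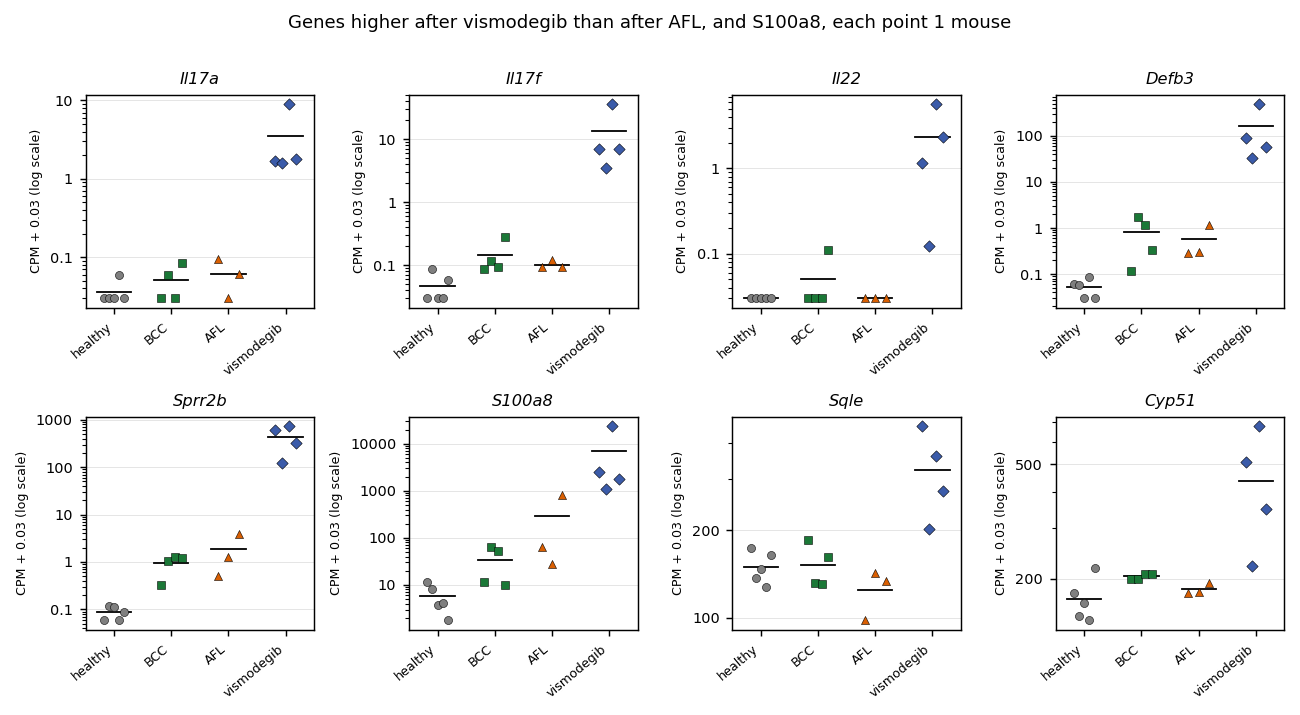
Cytokines, Defb3, Sprr2b, S100a8 and cholesterol enzymes in CPM plus 0.03 on a log scale (y axis) by group (x axis), 1 point a mouse, with bars at group means. The 4 vismodegib mice lie above the 3 AFL mice in all 8 panels. The nearest mice of both groups are closest for Cyp51 and S100a8, and S100a8 did not pass the test.

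Small proline-rich proteins of the SPRR2 family, which are cross-linked into the cornified envelope and rise in stressed epidermis, separated the groups in all mice. Sprr2b stood at 0.476, 1.25 and 3.92 CPM after AFL and at 606, 124, 724 and 321 CPM after vismodegib, 231-fold higher after vismodegib (log2 fold change -7.85 ± 0.86 SE, adjusted p = 0.000145). Sprr2d stood at 7.80, 24.1 and 33.9 and 1657, 351, 1814 and 888 CPM (log2 fold change -5.74 ± 0.81 SE, adjusted p = 0.000502), Sprr2i at 2.09, 1.01 and 4.58 and 200.2, 46.1, 257 and 122 CPM (log2 fold change -5.91 ± 0.72 SE), and Sprr2f at 4.50, 1.65 and 5.06 and 131, 54.2, 130.3 and 116 CPM (log2 fold change -4.85 ± 0.89 SE). Mouse 6 was the lowest of the vismodegib mice for all 4, still above every AFL mouse. The family members are near-identical, and reads may be split among them, so the 4 are not independent. Without mouse 11 Sprr2b was -8.96 and Sprr2i -6.63.

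Wound keratinocyte genes divided between the groups. Of 17, 6 were higher after vismodegib and 2 after AFL, and the 6 became 2 without mouse 2 and 3 without mouse 7, 1, 9 or 12. Il1f6, interleukin 36α of keratinocytes, stood at 15.0, 26.1 and 20.1 CPM after AFL and at 154, 64.4, 266 and 101 CPM after vismodegib (log2 fold change -2.84 ± 0.62 SE, adjusted p = 0.00897), and it was lost without mouse 2 (-2.60, adjusted p = 0.0556). Krt16, a keratin of wounded and hyperproliferating epidermis, stood at 978, 1256 and 3627 and 6701, 4353, 15228 and 6312 CPM with no overlap (log2 fold change -2.06 ± 0.61 SE, adjusted p = 0.0463). Both groups were far above untreated BCC skin, which held 112 to 487 CPM of Krt16. Krt16 was lost without mouse 2, 7, 1, 9 or 12 (-2.16 to -1.60) and was -2.84 without mouse 11.

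The 2 members that were higher after AFL serve migration. Plaur, the urokinase receptor, stood at 32.2, 32.9 and 136 CPM after AFL and at 8.78, 6.97, 11.0 and 7.15 CPM after vismodegib (log2 fold change 2.99 ± 0.44 SE, adjusted p = 0.00059), or 1.96 without mouse 11. Itga5, the fibronectin receptor chain, stood at 65.2, 114 and 109 and 45.9, 25.4, 25.7 and 39.3 CPM (log2 fold change 1.49 ± 0.29 SE, adjusted p = 0.00501). Of 11 basal keratinocyte genes 1 was higher after AFL and none after vismodegib, and without mouse 11 none passed, while without mouse 7 there were 2 calls. Krt14 did not pass (7159, 7034 and 15893 against 11264, 14243, 31179 and 13082 CPM, log2 fold change -0.80 ± 0.42 SE, adjusted p = 0.241).

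Antimicrobial proteins of the epidermis were higher after vismodegib in 4 of 14 genes and after AFL in none, with a median of -2.36, and the 4 became 2 without mouse 2. Defb3, a β-defensin, stood at 0.254, 0.274 and 1.12 CPM after AFL and at 90.4, 33.6, 485 and 57.5 CPM after vismodegib (log2 fold change -8.15 ± 1.25 SE, adjusted p = 0.000989). Defb6, a second β-defensin, stood at 70.7, 101 and 37.9 and 403, 139.8, 1201 and 211 CPM (log2 fold change -2.81 ± 0.64 SE, adjusted p = 0.0118), and Saa1, an acute phase protein, at 0.793, 0.244 and 0.682 and 13.6, 1.49, 24.7 and 9.65 CPM (log2 fold change -4.41 ± 0.99 SE, adjusted p = 0.0107). In each the vismodegib mice were all above the AFL mice. Lcn2, which withholds iron from bacteria, stood at 34.1, 24.0 and 158 and 324, 82.0, 819 and 260.0 CPM with overlap (log2 fold change -2.37 ± 0.70 SE, adjusted p = 0.0441). Without mouse 9 Defb3 was -6.74 and Defb6 -1.87, and Lcn2 was lost (-1.66). Without mouse 11 Defb3 was -9.24 and Lcn2 -3.65, and Defb6 was lost (-2.47). Defb6 was also lost without mouse 2 (-2.75), and Lcn2 without mouse 2 (-1.95), 7 (-1.95) or 1 (-2.43).

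The calprotectin chains S100a8 and S100a9, made by neutrophils and by stressed keratinocytes, had among the widest spreads. S100a8 stood at 63.7, 27.2 and 798 CPM after AFL and at 2449.6, 1083, 23274 and 1759 CPM after vismodegib, and S100a9 at 78.5, 29.3 and 1142 and 2852, 1277, 25902 and 2341 CPM. The groups did not overlap, yet neither passed the test (log2 fold changes -4.59 ± 1.41 and -4.28 ± 1.38 SE, adjusted p = 0.0539 and 0.064). The high AFL value was that of mouse 11, and without it both passed (-7.26 and -7.20, adjusted p = 0.0167 and 0.0142), as they did without mouse 6 (-4.95 and -4.64). Without mouse 9, the highest of all, they were -2.61 and -2.41.

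Further genes of inflamed or differentiating epidermis were among the largest toward vismodegib. Alox8, a lipoxygenase, stood at 1.46, 1.22 and 2.12 CPM after AFL and at 458, 76.6, 99.1 and 134 CPM after vismodegib (log2 fold change -6.89 ± 1.28 SE, adjusted p = 0.00378). Uox, urate oxidase, stood at 1.43, 0.762 and 5.48 and 162, 57.0, 491 and 97.2 CPM (log2 fold change -6.28 ± 1.32 SE, adjusted p = 0.00849), and Serpinb3a, an inhibitor of cysteine proteases, at 2.47, 4.12 and 8.72 and 226, 39.7, 1186 and 110.0 CPM (log2 fold change -6.25 ± 1.26 SE, adjusted p = 0.00644). None of these overlapped. The stefin Stfa3, also an inhibitor of cysteine proteases, stood at 115, 203 and 215 and 795, 413, 5784 and 787 CPM (log2 fold change -3.45 ± 0.94 SE, adjusted p = 0.0302). Csta1, of the same family, stood at 52.0, 122 and 159 and 300.2, 155, 1781 and 295 CPM with overlap (log2 fold change -2.51 ± 0.67 SE, adjusted p = 0.0279). These were 2 of 8 stefins higher after vismodegib (4 without mouse 6), and the family's members resemble one another.

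Mouse 9 was the highest vismodegib mouse for Uox, Serpinb3a, Stfa3 and Csta1. Without it Uox was -5.37, Serpinb3a -4.63 and Csta1 -1.20, and Stfa3 was lost (-1.93). Without mouse 11 Uox was -7.49 and Serpinb3a -6.84, and without mouse 1 Alox8 was -6.00. Uox was lost by a small margin without mouse 2 (-5.91), and Stfa3 and Csta1 without mouse 2, 7 or 11 (-3.56 to -3.14 and -2.81 to -2.10).

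Differentiated keratinocytes were not separated as a class. Of 16 genes only Tgm1, the transglutaminase that cross-links the envelope, passed, at 35.6, 93.9 and 68.8 CPM after AFL and 344, 189, 204 and 202 CPM after vismodegib with no overlap (log2 fold change -1.83 ± 0.45 SE, adjusted p = 0.0188). It was lost without mouse 2, 11 or 1 (-1.83 to -1.48), while 2 genes passed without mouse 7 or 6. Krt1 and Krt10, the keratins of the suprabasal layers, spread widely within both groups: Krt1 stood at 1370.4, 8381 and 2522 and 13534, 2574, 5899 and 9184 CPM and Krt10 at 933, 6806 and 1365 and 7785, 978, 3424 and 5695 CPM (log2 fold changes -0.93 ± 0.64 and -0.56 ± 0.73 SE, adjusted p = 0.37 and 0.66). The list summed to 4749, 21174 and 6739 CPM after AFL and 28495, 6063, 13533 and 21322 CPM after vismodegib, which overlap, while the basal list summed to 12463, 14759 and 23958 and 23534, 24702, 44375 and 23317 CPM. The part of keratinocyte share in the SPRR2, defensin and stefin values was not tested.

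Cholesterol synthesis was higher after vismodegib in 8 of 17 genes, by small factors, and higher after AFL in 1, by a larger one. Sqle, squalene epoxidase, stood at 98.1, 143 and 134 CPM after AFL and at 456, 203, 361 and 274 CPM after vismodegib, 2.59-fold higher after vismodegib (log2 fold change -1.37 ± 0.26 SE, adjusted p = 0.00449). Fdps, farnesyl diphosphate synthase, stood at 83.7, 104 and 95.3 and 269.6, 153, 273 and 166 CPM (log2 fold change -1.19 ± 0.26 SE, adjusted p = 0.00913), and Cyp51, lanosterol demethylase, at 178, 179.7 and 194 and 508, 222, 677 and 349 CPM (log2 fold change -1.26 ± 0.30 SE, adjusted p = 0.0148). In all 3 the vismodegib mice lay above the AFL mice, mouse 6 was the lowest of them, and every AFL mouse was within or below the range of untreated BCC skin. Fdps (-1.06) and Cyp51 (-1.17) were lost without mouse 2, and the 8 calls became 1 there, 4 without mouse 7, 5 without mouse 11 and 4 without mouse 1. With the 7 treated mice alone none of the 17 was called higher after vismodegib, Sqle included (adjusted p = 0.0579), and 1 was called higher after AFL. In the main fit 1 of the other members was higher after AFL, and none without mouse 11, 1 or 12. That member had the largest change of the list (log2 fold change 3.68), while the largest toward vismodegib was -1.81.

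Sebaceous glands make lipid from the same precursors, and 2 of their 12 genes were higher after vismodegib. Elovl3, a fatty acid elongase, stood at 61.2, 145 and 99.0 CPM after AFL and at 757, 121, 502 and 514 CPM after vismodegib (log2 fold change -2.22 ± 0.51 SE, adjusted p = 0.013), with mouse 6 inside the AFL range. Awat1, a wax synthase, stood at 36.4, 81.2 and 46.8 and 260.3, 46.4, 245 and 168 CPM, also with overlap (log2 fold change -1.72 ± 0.51 SE, adjusted p = 0.0476). Elovl3 was lost without mouse 2 (-1.89) or 11 (-2.16), and Awat1 without mouse 2, 11, 1, 9 or 12 (-1.75 to -1.43), while without mouse 6 there were 4 calls. The list summed to 3623, 6103 and 3118 CPM after AFL and to 12428, 2723, 8827 and 8076 CPM after vismodegib, and the part of sebaceous glands in the cholesterol values was not tested.

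Stress genes gave few calls, in both directions, against 6.69% of all genes called higher after AFL and 2.46% higher after vismodegib. Hmox1, haem oxygenase, stood at 169, 344 and 533 CPM after AFL and at 75.0, 61.7, 61.7 and 93.7 CPM after vismodegib (log2 fold change 2.26 ± 0.34 SE, adjusted p = 0.000763), the 1 of 14 genes of the oxidant and xenobiotic list that passed. Atf3, a stress-induced transcription factor, was higher after AFL, at 44.7, 50.1 and 60.9 and 9.60, 4.69, 14.3 and 6.59 CPM (log2 fold change 2.57 ± 0.47 SE, adjusted p = 0.00324), and Egr3, a growth-induced one, higher after vismodegib, at 76.5, 88.5 and 70.9 and 279, 195, 117 and 186 CPM (log2 fold change -1.30 ± 0.34 SE, adjusted p = 0.0237). They were the 2 of 16 immediate early genes that passed, and Egr3 was lost without mouse 2, 11 or 1 (-1.24 to -1.08). Calls higher after AFL were 2 without mouse 2, and calls higher after vismodegib 2 without mouse 7. Neither pair of groups overlapped.

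Among 12 heat shock genes the collagen chaperone Serpinh1 was higher after AFL (515, 462 and 561 against 81.0, 169, 195 and 193 CPM, log2 fold change 1.68 ± 0.45 SE, adjusted p = 0.0288). The cytosolic chaperone Hspa1b (65.1, 153 and 101 against 329.9, 235, 275 and 299 CPM, log2 fold change -1.42 ± 0.32 SE, adjusted p = 0.0107) and the mitochondrial Hspd1 (211, 187 and 244 against 388, 364, 816 and 402 CPM, log2 fold change -1.20 ± 0.31 SE, adjusted p = 0.0233) were higher after vismodegib. No mice overlapped in these 3. Calls were lost for Serpinh1 without mouse 2, 11 or 1 (1.46 to 1.73), for Hspa1b without mouse 2 (-1.12) or 11 (-1.36), and for Hspd1 without mouse 2, 7 or 11 (-1.29 to -1.12). Of 15 p53 targets, Phlda3, an inhibitor of Akt signalling, was higher after vismodegib (log2 fold change -0.98 ± 0.28 SE, adjusted p = 0.0376) and was lost without mouse 2, 11, 1 or 9 (-0.98 to -0.75).

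Several programmes gave no gene past the threshold in edgeR's quasi-likelihood test. They were the 16 Wnt pathway genes (median -0.58), the 16 cell cycle genes (-0.49), the 11 EGF receptor ligands and receptors (-1.01), the 13 adipocyte genes (0.43) and the 8 Schwann cell and nerve genes (-0.06). At an unadjusted p under 0.05 there were 3, 0, 6, 0 and 1 of them, in that order. DESeq2 called 1 Wnt gene and 5 of the EGF receptor list, and limma voom 1 of the latter, and in edgeR's test 3 of the latter were higher after vismodegib without mouse 9, 2 without mouse 6 and 1 without mouse 7 or 11. The EGF receptor list summed to 319.8, 363 and 442 CPM after AFL and to 914, 713, 728 and 699.8 CPM after vismodegib, which do not overlap. Mki67, a marker of dividing cells, stood at 80.6, 63.6 and 206 CPM after AFL and 126, 75.7, 526 and 173 CPM after vismodegib (log2 fold change -0.95 ± 0.63 SE, adjusted p = 0.354). Hbegf, an EGF receptor ligand, stood at 13.1, 11.1 and 25.9 and 62.0, 29.5, 36.9 and 33.2 CPM without overlap (log2 fold change -1.27 ± 0.39 SE, adjusted p = 0.0547), and passed without mouse 11 (-1.72) or mouse 6 (-1.39).

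Growing-hair genes had the list median farthest from 0 and no gene past edgeR's test. All 21 had log2 fold changes below 0, with a median of -4.51, 3 had an unadjusted p under 0.05, DESeq2 called 5 and limma voom none. Their sum was 86.8, 65.1 and 705 CPM after AFL and 131, 23294, 129.7 and 218 CPM after vismodegib, with mouse 6 far above all others, and without it the median was 1.80. The 11 melanocyte genes, which follow the growing follicle, summed to 57.5, 47.0 and 51.3 CPM and 35.0, 1209, 90.5 and 163 CPM, with mouse 6 again apart (median -4.39, DESeq2 called 6 and edgeR and limma voom none, with 3 at an unadjusted p under 0.05). With mice 6 and 11 both left out, an exclusion chosen after seeing the data, 631 genes were higher after AFL and 237 after vismodegib, and 27 of the 31 interferon genes, 12 of the 20 matrix genes and 9 of the 19 embryonic muscle genes were among the former.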

How the data were processed

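RNA of 1 cm2 skin pieces was sequenced with a directional library kit, per the labels' protocols. The authors deposited 1 table of expected counts for 18521 gene symbols in 19 libraries, made with Bowtie2 and RSEM on GRCm39, per the submitters' processing notes. Versions, strand setting and annotation were not given in the sources used here.

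Expected counts (3.42% of values not whole) were rounded, and the libraries of mice 11, 12 and 16 were summed, which left 16 mice. Nothing says that other mice were technical replicates, and p-values measure the spread between mice. Genes passing edgeR's filterByExpr by group numbered 15760 (2761 removed), 6 rows of them repeats of the counts of another symbol. Counts were scaled by TMM and fitted in edgeR 4.0.16 (R 4.3.3) with the quasi-likelihood model, robust, over all 4 groups, which share 1 estimate of spread (common dispersion 0.178). AFL minus vismodegib was tested with Benjamini-Hochberg adjustment over all 15760 genes at 0.05. The SE is the absolute log2 fold change divided by the square root of F, and levels are counts per 1000000 (CPM). A gene with no count in a group was set against a floor of 3 counts over the group, which covers counting error only. The fit was also run on counts simulated from its own model, which does not check that model against these mice.

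The members and lists were chosen with earlier results of these data known. Genes were named as the 10 largest fold changes in each direction among called genes whose groups did not overlap, with a mean of at least 1 CPM in the higher group, and as the 3 smallest p-values of a list that held a call or the smallest of another list, beside Trp53, Ptch1, Gli1, Gli2 and Hhip. The following were named after their values were seen: Rsad2, Ifit3, Ifit3b, Isg15, Ifi27l2a, Isg20, Ifih1, Nod2, Nlrp3, Ccl20, Cxcl2, Cxcr2, Mrc1, Cd163, Cd3e, Foxp3, Col1a1, Col3a1, Spp1, Timp1, Pecam1, Procr, Myog, Il19, Lif, Tnf, Lcn2, S100a8, S100a9, Il1f6, Krt1, Krt5, Krt10, Krt14, Krt16, Itga5, Mki67 and all genes of the closing observations. Some genes that count in their lists are not reported here by name. Alternatives were DESeq2 1.42.0, limma voom (limma 3.58.1), other scalings and filters, other treatments of paired libraries, covariates, a replicate block and leaving out each mouse.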

Additional observations from a re-analysis of the deposited data

Results flagged for a closer look

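In the vismodegib group of 4 mice, 25 of 151 genes examined had 1 mouse far from the other 3, by a gap that was more than Dixon's 95% limit as a share of the group's range. The limit supposes normally spread values but was applied to CPM without a log, and some of the genes were named after their values were seen. No share from chance is therefore set beside the 25. The AFL group of 3 mice cannot be examined this way. Mouse 9 was the distant mouse for 15 genes, and it was the highest each time. They were Isg20 at 22.9 CPM (the nearest other mouse at 7.14), Mmp12 at 26.98 (7.72), Spp1 at 19.9 (7.86), Cxcl2 at 14.2 (1.81), Il17a at 8.87 (1.76), Il17f at 35.4 (7.04) and Il19 at 59.2 (13.7). Next came Defb3 at 485 CPM (the nearest other mouse at 90.4), S100a8 at 23274 (2449.6), S100a9 at 25902 (2852), Csta1 at 1781 (300.2), Stfa3 at 5784 (795), Serpinb3a at 1186 (226) and Krt14 at 31179 (14243). The chaperone Hspd1 stood at 816 CPM (402).

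Mouse 1 was the highest for 5 genes, Ncam1 at 17.04 CPM (10.2), Lif at 17.3 (7.50), Tnf at 6.56 (3.68), Alox8 at 458 (134) and Tgm1 at 344 (204). Mouse 12 was the highest for another 5, Cdon at 33.2 CPM (20.6), Dhx58 at 8.71 (6.90), Ccl5 at 1.29 (0.615), Actc1 at 3.32 (0.478) and Prl2c3 at 0.267 CPM, where the other 3 had no count. Mouse 6 was distant for none of the 151.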

How the results depend on the processing

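The number of genes that differed moved with the settings, and so did their split by direction. AFL took between 60.0% of the calls (DESeq2) and 91.0% (without mouse 2). Against 1442 calls in the main analysis, DESeq2 made 2507 (1505 higher after AFL, 1002 after vismodegib) and all 19 libraries as separate replicates 2612 (1725 and 887). The 7 treated mice alone gave 642 (525 and 117), and age as a covariate 554 (472 and 82). With days since induction as a covariate 656 genes were higher after AFL, scaling by library totals alone gave 194 higher after vismodegib, and the lower-numbered library of each pair 224. With mice 6 and 11 both left out, chosen after seeing the data, there were 868 (631 and 237). Leaving out 1 mouse gave 732 to 1487 calls, 651 to 1000 higher after AFL and 66 to 533 higher after vismodegib: 732 (666 and 66) without mouse 2, 847 (707 and 140) without mouse 11 and 830 (651 and 179) without mouse 1 were the lowest. The cause was not tested, beyond the smaller number of mice in some of these fits. No gene named with a call changed direction under any of the 22 alternatives, and the direction of other called genes was not followed.

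Reversals were seen in genes without a call. Trp53 was 0.0059 with limma voom, 0.10 with library totals, 0.015 with the lower-numbered libraries, 0.071 with the replicate block, 0.070 with the growing-hair score, 0.12 to 0.15 without mouse 2, 6 or 12, and 0.091 without mice 6 and 11. Ptch1 was 0.028 with library totals, 0.083 with the higher-numbered libraries, 0.26 with days since induction, 0.15, 0.058 and 0.16 without mouse 7, 11 and 6, and 0.35 without mice 6 and 11. Mrc1 was -0.063 without mouse 11 and -0.33 without mice 6 and 11. Cd163 was -0.025 with limma voom, -0.073 with age, -0.042 with the growing-hair score, -0.39 without mouse 11, -0.11 without mouse 6 and -0.54 without both. Timp1 was -0.82 without mouse 11, -0.0098 without mouse 1, -0.052 without mouse 6 and -1.15 without mice 6 and 11. Cxcr2 was 0.046 without mouse 2 and 0.058 without mouse 7, and Cd3e was 0.10 with the replicate block.

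Of 125 genes named with a call, 38 missed the threshold with the 7 treated mice alone, 41 with age, 27 with days since induction, 28 without mice 6 and 11, 11 with the lower-numbered libraries, 6 with limma voom and none with DESeq2 or the other scaling, RLE. Among genes that kept their call without each single mouse, Epor, Il19, Ncr1 and Sqle missed it with the 7 mice alone, C2, Cd83, Epor, Gzma, Il19, Ncr1, Serpinb3a and Tlr9 with days since induction, Ifi207, Serpinb3a, Tlr7 and Vcam1 with age, and Adam8, Ccl3, Col3a1, Ifi207, Osm, Vcam1 and Vsir without mice 6 and 11. At a filter of 1 CPM in 3 mice Gzma, Ncr1 and Mymx were not tested. Il22 could not be fitted without mouse 1, 9 or 12, where it did not pass the count filter.

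Mice were paired by the order of their replicate numbers. Their deviations from the group means correlated at -0.36 (mice 2 and 1), -0.17 (mice 7 and 6) and 0.11 (mice 11 and 9). Mice 11 and 12, which share replicate number 4 in the labels, correlated at -0.16, and mouse 7 correlated best with mouse 1 (0.57). A shared batch or day was not tested. With the replicate block 1549 genes were called (1207 and 342), 1217 of them shared with the main analysis. Library pairs of mice 11 and 12 differed by 0.263 and 0.395 (SD of log2 ratios over well-counted genes) against about 0.05 from counting, and whether skin piece or library preparation differed was not tested. Genes under 1 CPM rest on few counts.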

Other observations

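The following gene groups were listed after the values had been seen, and some share members with the lists above, so their counts describe these mice and support nothing. Lysosomal genes were higher after AFL in 26 of 47 and after vismodegib in none, with a median log2 fold change of 1.10. Lipa, the lysosomal acid lipase that splits cholesterol esters, stood at 232, 232 and 165 CPM after AFL (mice 2, 7 and 11) and at 19.7, 21.5, 26.3 and 26.8 CPM after vismodegib (mice 1, 6, 9 and 12), 8.90-fold higher after AFL (log2 fold change 3.15 ± 0.27 SE, adjusted p = 4.2e-05). Lgmn, the endopeptidase legumain, stood at 621, 691 and 783 and 169.5, 158, 233 and 215 CPM (log2 fold change 1.85 ± 0.21 SE, adjusted p = 0.000145). Neither gene overlapped between the groups, and with any 1 mouse left out 23 to 29 of the 47 passed. Genes that modify procollagen gave 14 of 21 calls, all higher after AFL, Serpinh1 from above included, among them P4ha3, a prolyl hydroxylase subunit, at 8.56, 9.73 and 16.6 and 0.376, 1.03, 0.106 and 0.990 CPM (log2 fold change 4.16 ± 0.76 SE, adjusted p = 0.00328). Of 13 interferons, receptors and signal carriers of type I and III, 6 were higher after AFL, Tlr7 and Tlr9 from above included, and none after vismodegib. The 6 became 2 without mouse 1 and 3 without mouse 2 or 11. The receptor chain Ifnar2 stood at 67.5, 66.5 and 73.2 and 28.8, 24.3, 39.1 and 38.9 CPM (log2 fold change 1.08 ± 0.27 SE, adjusted p = 0.0199) and was lost without mouse 11 (1.05) or mouse 1 (1.02).

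On the vismodegib side, 13 of 23 epithelial transcription factors and junction genes were higher and none was higher after AFL. Grhl3, a factor of the skin barrier, stood at 26.7, 59.4 and 42.8 CPM after AFL and 270.0, 87.7, 115 and 155 CPM after vismodegib (log2 fold change -1.87 ± 0.41 SE, adjusted p = 0.00986). Elf3 stood at 0.951, 1.92 and 2.16 and 10.8, 4.50, 6.00 and 5.56 CPM (log2 fold change -1.99 ± 0.44 SE) and Ovol1 at 44.3, 57.4 and 76.5 and 279.8, 182, 147 and 236 CPM (log2 fold change -1.83 ± 0.45 SE). The 13 became 7 without mouse 7, 11 or 1. All 13 calls were lost without mouse 2, where Grhl3 was -1.57, Elf3 -1.66 and Ovol1 -1.61, and Ovol1 was lost without mouse 7 (-1.81) or 1 (-1.67) too. Ribosome biogenesis behaved alike, with 13 of 35 genes higher after vismodegib and 0 without mouse 2, 1 without mouse 11 and 3 without mouse 7 or 1. Its rRNA methyltransferase Fbl stood at 62.3, 68.2 and 67.7 and 135, 157, 260.0 and 125 CPM (log2 fold change -1.36 ± 0.36 SE, adjusted p = 0.0279) and was lost without mouse 2, 7, 11 or 9 (-1.38 to -1.11).

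Late cornified envelope and small proline-rich genes, which include the SPRR2 family described above, were higher after vismodegib in 9 of 33. Lce3a stood at 2.41, 2.59 and 3.66 and 57.0, 17.3, 83.5 and 37.6 CPM (log2 fold change -4.07 ± 0.96 SE, adjusted p = 0.0151) and Lce3b at 3.11, 1.95 and 4.68 and 51.8, 17.2, 101 and 40.2 CPM (log2 fold change -4.01 ± 0.82 SE). Lce3a was lost without mouse 2 (-3.89) or mouse 7 (-4.002), and the family's members may share reads. Of 19 genes of type 17 immunity 7 were higher after vismodegib and none after AFL, and Il17a, Il17f, Il22 and Ccl20 from above are 4 of the 7. The 7 became 3 without mouse 1 and 4 without mouse 2, 11 or 12. Zc3h12a, a ribonuclease that degrades cytokine mRNA, stood at 14.9, 33.0 and 40.9 and 371, 94.3, 112 and 180.0 CPM (log2 fold change -2.68 ± 0.50 SE, adjusted p = 0.00351), with no overlap.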
